A study of Mus musculus with 2 samples.

Results

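The regions described here are single tiling probes that stand alone in the probe layout: autosomal probes of the array with no other probe within 500 bp on either side. The rule used positions (mouse build mm8) and no measured value. It found 2485 lone regions among 88674 autosomal probes (2.80%), of 90526 non-control probes in all. Probes joined at gaps of at most 500 bp form 20920 runs, and 11.9% of these runs hold 1 probe. An outlier flag on either array removed 35 of the lone regions, and the other 2450 are described.

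Hypothalamic genomic DNA of female, non-agouti mice of a C57BL/6J and C3H/HeJ mixture was taken at 2 ages, birth (P0) and 21 days later (P21), to follow methylation over the suckling period named in the series title. Both ages shared an array, and there were 2 arrays, A and B. Array A carried P0 in Cy5 and P21 in Cy3, and array B carried the reverse. The design text calls the 2 arrays biological replicates without giving the number of animals or whether DNA was pooled, so a p-value here covers only these 2 arrays. In the limma test used below, most of the information on spread came from all probes. Genomic DNA has no marker genes, so the labelled tissue could not be checked against the data, and a mixture of cell types contributes to every value.

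In mammals DNA methylation is placed mainly on cytosines followed by guanine, and in the postnatal brain it is laid down and removed while neurons mature and glia are formed. The assay reads it through a pair of restriction enzymes that recognise CCCGGG. SmaI cuts the site to blunt ends when it is unmethylated, XmaI then cuts the remaining methylated copies to sticky ends, and adaptor-mediated PCR amplifies fragments whose ends carry such sites. All log2 ratios below are P21 over P0, so a positive value is more amplified DNA from that fragment at P21. The ratio is not a methylation percentage, and it compares places within an array rather than giving an absolute level.

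The label of an isolated probe held on the farther side of most regions and less on the nearer side. The median gap to the nearest probe was 617.5 bp, with quartiles of 545 and 784 bp, and the median gap on the farther side was 35759 bp. A probe lay within 1000 bp on at least 1 side of 2107 regions (86.0%) and on both sides of 282. Only 213 regions (8.69%) had no probe within 2000 bp, 172 had none within 10000 bp and 52 none within 100000 bp, over a range from 501 to 2159844 bp. The plot of gaps on both sides shows that most lone regions sit at the edge of a probed stretch.

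**Figure D1:**
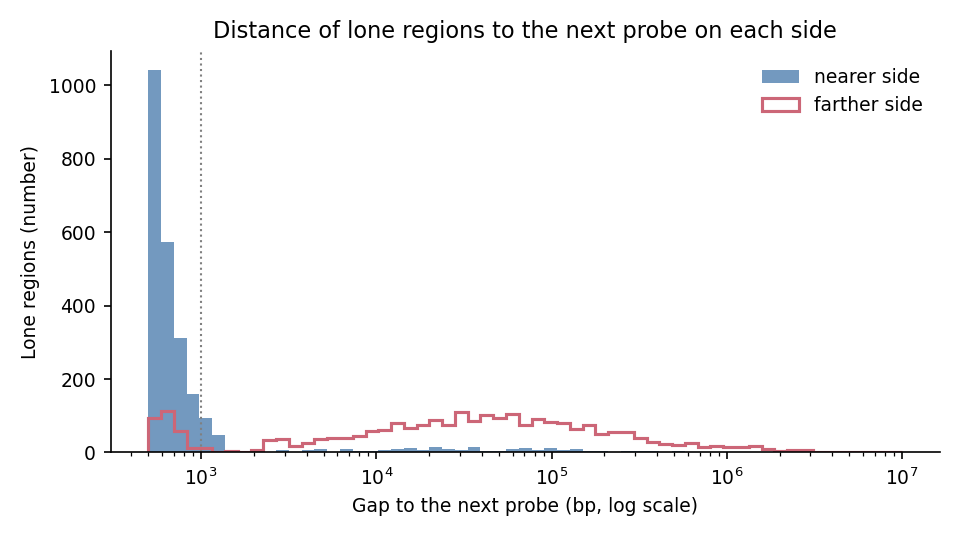
Distance from each lone region to the next probe, in bp on a log scale, against the number of lone regions, for the nearer side (filled) and the farther side (outline), with a dotted line at 1000 bp. The nearer gaps gather just past the 500 bp of the rule (median 617.5 bp), while the farther gaps spread around a median of 35759 bp.

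Many lone regions lay next to a run of 3 probes, in a layout where runs of 4 probes were common. Of the 2107 regions with a probe within 1000 bp, 1207 (57.3%) lay next to a run of 3 probes, although runs of 3 made up 11.8% of all runs and runs of 4 made up 44.8%. Another 295 lay next to a second lone region, 221 next to a run of 2 and 384 next to a run of 4 or more. When probes were joined at gaps to 1000 bp instead, 1508 lone regions (61.6%) fell into groups of exactly 4 probes, 575 into larger groups, and 343 stayed alone. The splits at 1000 and 2000 bp and the count of groups of 4 were chosen after the gaps had been seen. The 500 bp limit did not mark a step in the ratios. The 1015 probes just outside the rule, with their nearest probe over 450 to 500 bp away, had a mean log2 ratio of -0.12, and the 678 lone regions at over 500 to 550 bp also had -0.12.

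Lone regions were dimmer than the rest of the array at both ages. Brightness, taken as the mean log2 processed signal over both channels and both arrays, had a median of 8.26 in lone regions, 9.76 in all autosomal probes and 10.01 in probes of runs of 4 or more. On array A the median log2 signal of lone regions was 8.18 at P21 and 8.35 at P0. On array B it was 8.11 at P21 and 8.37 at P0, so both arrays had the lower median at P21. The scanner software marked 2018 lone regions (82.4%) as well above background in all 4 channels, against 92.3% of autosomal probes and 93.7% of probes in runs of 4 or more. Lone probes were also longer, with a mean of 54.8 nt against 51.5 nt in all autosomal probes. Probes of 60 nt made up 42.0% of lone regions and 24.8% of autosomal probes. Probes of short runs were much like lone regions in these traits. In runs of 2 and 3 the median brightness was 8.50 and 8.72, and 84.85% and 86.86% were well above background in all 4 channels. Their mean lengths were 53.96 and 53.23 nt, and 60 nt probes made up 37.58% and 33.21%.

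The ratios of lone regions leaned below 0, more on array B than on array A. Array A gave them a mean log2 ratio of -0.07 and array B one of -0.22, with a mean of -0.14 ± 0.11 (SD, n = 2 arrays) and a median of -0.15. All autosomal probes had means of 0.06 and 0.05 on the same arrays. Of the lone regions, 47.0% were below 0 on both arrays and 13.9% above 0 on both, against 28.1% and 28.3% of autosomal probes. Short runs shared this lean, with 44.2% and 17.2% in runs of 2 and 40.4% and 19.1% in runs of 3. From the lowest to the highest, the mean of both arrays ran from -2.08 to 3.41 in lone regions. The central 90% of them lay between -0.81 and 0.55, a range that reached less far up than the -0.58 to 0.96 of all autosomal probes. On each of the 19 autosomes the mean of the lone regions was below 0 on array B, and it was below 0 on array A on all but chromosome 8, where it was 0.03.

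Across lone regions the ratios of the 2 arrays correlated with Pearson's r = 0.37 and Spearman's rho = 0.31 (2450 regions that share both arrays). Over probes of runs of 4 or more r was 0.61 and rho was also 0.31, so only r was lower in lone regions. The likeness was greater where the signal was clear. The 2018 lone regions well above background in all channels gave r = 0.55, and the 432 others gave 0.06. The plot of one array against the other shows this as a cloud stretched along the diagonal, with its centre below 0, around which the dimmer regions scatter without direction.

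**Figure D2:**
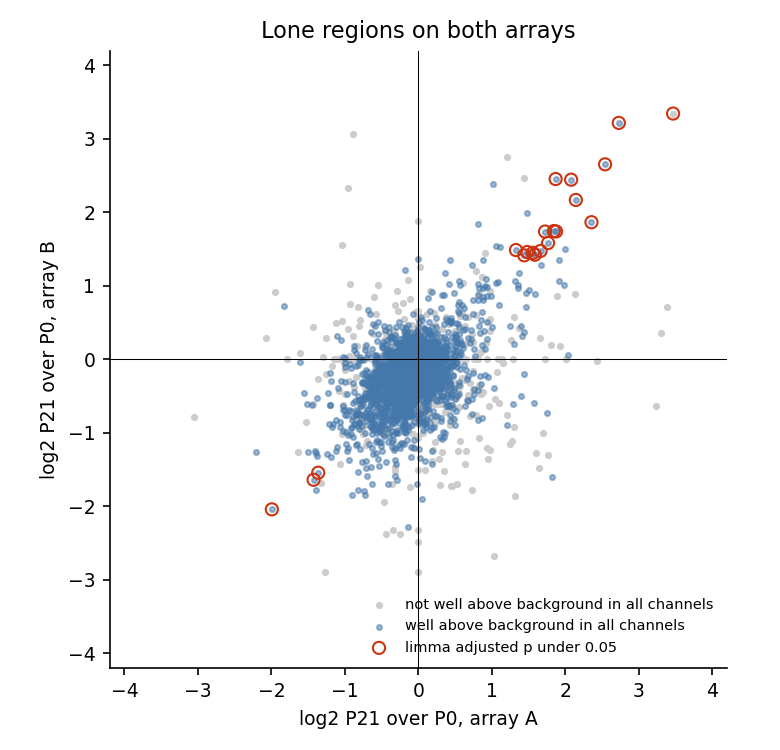
log2 P21 over P0 on array A (horizontal) and array B (vertical) for each of the 2450 lone regions, in blue where the region was well above background in all 4 channels and in grey otherwise, with the 20 regions below a limma adjusted p of 0.05 ringed. The ringed regions lie along the diagonal, 17 on the higher side and 3 on the lower side.

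A moderated test in limma, fitted on all 89726 probes kept and adjusted over them by Benjamini-Hochberg, called 17 lone regions higher at P21 (0.694%) and 3 lower (0.122%). Over all probes it called 2.10% higher and 0.0925% lower, so the share of higher calls in lone regions was below the background and the share of lower calls rested on 3 regions. At an unadjusted limma p under 0.05, 117 of the 2450 lone regions were higher and 318 lower, against 8742 and 5282 of 87889 autosomal probes. A rule of size, which asks for a mean log2 ratio of at least 1 with at least 1.5-fold and the same sign on each array, took 46 lone regions higher (1.88%) and 44 lower (1.80%). It took 4.50% of all probes as higher and 0.868% as lower. The count rested on both arrays: a log2 ratio of at least 1 in size on array A alone took 84 higher and 66 lower, and on array B alone 58 higher and 146 lower. These single-array counts stand without a share over all probes. By the scanner software's own spot p-value under 0.01 on both arrays, 62 lone regions were higher (2.53%) and 121 lower (4.94%), against 6.63% and 2.11% of all probes. By the last 2 rules lone regions had fewer higher and more lower calls than the array as a whole, and so did probes of short runs. In runs of 2 the rule of size took 2.16% higher and 2.10% lower and the scanner's p-value 3.17% and 4.02%. In runs of 3 these were 2.47% and 1.28%, and 3.52% and 3.14%.

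The split between higher and lower limma calls moved with the settings, while lone regions stayed below the share of higher calls in all probes under each one listed here. Fitted only on probes well above background in all channels, limma called 67 lone regions higher (3.32%) and 147 lower (7.28%), against 7.32% and 2.61% of all such probes. With limma's trend and robust settings it called 52 higher and 69 lower (2.12% and 2.82%), against 5.70% and 1.23%. With a loess curve on the processed signals it called 64 higher and 67 lower (2.61% and 2.73%), against 5.57% and 1.32%. With each array centred on the mode of its ratios it called 24 higher and 14 lower (0.980% and 0.571%), against 3.24% and 0.283%. With the normexp background correction and no loess it called 8 higher (0.327%) and 0 lower, against 1.72% and 0.00557%.

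A check on dye and chance came from leaving the sign of array A unturned, so that the ratio is Cy5 over Cy3 on both arrays and P21 and P0 cancel. The rule of size then took 25 lone regions, 5 with more Cy5 and 20 with more Cy3, which is 27.8% of the 90 taken with the sign turned. Over all probes the corresponding counts were 268 and 4820, or 5.56%. Among lone regions well above background in all channels the unturned count was 1 with more Cy5 and 4 with more Cy3, and limma called no lone region on unturned ratios. Of the 46 higher and 44 lower regions by size, 3 and 7 had the dimmer age not well above background on either array, and these hold only a bound; none of them is named here.

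The lone regions higher at P21 lay close to other probes, as most lone regions did. The 17 called by limma had a median log2 ratio of 1.80 and a median brightness of 8.72 (7.66 in the 46 higher by the rule of size). They lay on 11 chromosomes, and all had their nearest probe within 1000 bp, as did 86.0% of all lone regions. The highest among regions well above background in all channels was chr15:85352623-85352677, with processed signals of 2153 at P21 and 324.8 at P0 on array A, and 2351 and 252.7 on array B. Its log2 ratios were 2.73 and 3.22, a 7.85-fold mean ratio with a limma standard error of 0.19 and an adjusted p of 0.0385. The run of 3 probes that begins 507 bp away was as high, with a mean log2 ratio of 3.11 and all 3 probes between 2.93 and 3.26. The second, chr17:45064112-45064167, had signals of 3017 at P21 and 518.1 at P0 on array A and of 2790 and 443.3 on array B, 6.05-fold, with log2 ratios of 2.54 and 2.65 and an adjusted p of 0.0385. Its nearest run, also of 3 probes and 507 bp away, had a mean of 2.43. On both arrays P21 was the brighter age in these regions by several fold, with no overlap between the ages.

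The next named regions were of the same kind with smaller ratios. At chr10:8446698-8446757 the log2 ratios were 2.08 on array A and 2.45 on array B, at low signals of 352.8 against 83.43 on array A. At chr17:45338719-45338778 they were 1.87 and 2.45, the least even of the 10 with 0.59 between the arrays. At chr4:107237830-107237880 they were 2.14 and 2.17. The single probes nearest to these 3 regions had mean log2 ratios of 2.22, 2.58 and 2.38, but not all of their runs were high throughout. The 11 probes beside chr10:8446698-8446757 had a mean of 1.07, from -0.59 to 2.39, and the 13 beside chr17:45338719-45338778 a mean of 1.21, from -0.33 to 2.58. The run of 3 beside chr4:107237830-107237880 was high throughout, with a mean of 2.19, from 1.97 to 2.38. The brightest of the named higher regions were chr8:98074520-98074570, at 2.36 and 1.87 with P21 signals of 5836 and 4902, and chr6:97549354-97549413, at 1.88 and 1.74 with P21 signals of 5670 and 4343. The 3 others were dim. At chr8:87632861-87632909 the log2 ratios were 1.85 and 1.75, with P0 signals of 41.58 and 58.67. At chr5:118127408-118127467 they were 1.73 and 1.74. At chr6:113634568-113634627 they were 1.77 and 1.58, with P0 signals of 26.89 and 33.38, and here the nearest probe, itself a lone region 545 bp away, was at 0.52 and -0.03. For all 10 the adjusted p lay between 0.0385 and 0.0438. The calls depended on the background correction, also beyond the dim regions. With normexp and loess 4 of the 10 had an adjusted p under 0.05, and with normexp alone 5, and under either setting the fold moved by over 1.5 times in 8 of them. With normexp alone the lowest mean was 0.01, at chr6:113634568-113634627, and array B fell below 0 in 4 regions: -0.22 at chr10:8446698-8446757, -0.71 at chr8:87632861-87632909, -0.48 at chr5:118127408-118127467 and -0.95 at chr6:113634568-113634627. The brighter chr4:107237830-107237880 had an adjusted p of 0.230 when loess followed normexp and 0.533 under normexp alone.

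A further called region, chr1:91763695-91763754, had the highest computed mean ratio of all lone regions and was singled out after its values were seen, since it falls outside the naming rule. Its log2 ratios were 3.47 and 3.35, but its P0 signals of 31.68 and 29.09 were well above background on array A only, so 1 of 2 arrays measured its P0 side and the ratio on array B rests on a P0 signal not well above background. Its nearest probe, 540 bp away, had a mean log2 ratio of 0.60.

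Only 3 lone regions were called lower at P21 by limma, and the probes near them were not all low. The lowest, chr4:148998705-148998750, had signals of 93.45 at P21 and 372.4 at P0 on array A, and of 99.22 and 409.0 on array B. Its log2 ratios were -1.99 and -2.04, 4.05-fold higher at P0, with a limma standard error of 0.15 and an adjusted p of 0.0385. It was also one of the most isolated regions with a large change, 15988 bp from its nearest probe on 1 side and 21443 bp on the other. The second, chr17:5484016-5484060, was at -1.43 and -1.64 (adjusted p = 0.0467), with signals of 201.4 against 541.1 on array A and 102.4 against 319.1 on array B. The run of 3 probes 722 bp away had a mean log2 ratio of -0.42, less than a log2 unit below 0. The third, chr11:104086945-104086999, was at -1.36 and -1.54 (adjusted p = 0.0483), and the lone region 554 bp away was low as well, at -1.18 and -1.33.

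The remaining 7 named lower regions met the rule of size and did not pass limma, with adjusted p from just above the threshold to 0.146. The lowest of them was chr9:121218531-121218580 at -2.22 on array A and -1.26 on array B. It was followed by chr15:79628064-79628123 at -1.40 and -1.78, and by chr6:91644593-91644639 at -1.51 and -1.26. The other 4 had means between -1.38 and -1.33, and the most uneven was chr5:147103230-147103289 at -0.90 and -1.85. Signals at P0 in these 7 regions ran from 149.8 to 1525, all well above background. All 10 lower regions had an adjusted p under 0.05 with loess on the processed signals, with the trend and robust settings or among probes well above background, and 8 with mode centring. With either normexp correction none of the 10 did, and their means then lay between -1.33 and -0.37, all still below 0.

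Against probes of longer runs at the same brightness, lone regions had lower ratios on both arrays. Probes in runs of 4 or more were weighted to the brightness of the lone regions over 10 classes. On array A the weighted longer-run probes had a mean log2 ratio of 0.07 where the lone regions had -0.07, and on array B 0.02 where the lone regions had -0.22. The differences of -0.13 and -0.25 gave a mean of -0.19 ± 0.08 (SD, n = 2 arrays), and the exact sign-flip permutation test, two-sided, gave p = 0.5, the smallest that 2 arrays allow. Adding probe length to the matching gave -0.18, and taking only the end probes of the longer runs gave -0.15. Against shorter runs the difference was smaller. It was -0.05 ± 0.02 against runs of 3 and -0.01 ± 0.02 against runs of 2.

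The same comparison was made in each brightness class. In the 2 dimmest classes lone and longer-run probes were within 0.03 of each other on both arrays. These classes lie near the background: 0% of the lone regions in the first and 28.2% in the second were well above it in all channels, with r between arrays of -0.09 and 0.10, so a difference could not be read there. In the third to ninth classes lone regions were lower on both arrays, for example with differences of -0.22 and -0.42 in the seventh class. In the brightest class array A differed by -0.02 and array B by -0.16. There the lone regions varied little, with an SD of 0.18 across regions against 0.46 in the longer-run probes, and the 2 arrays correlated at r = -0.05 against 0.67.

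**Figure D3:**
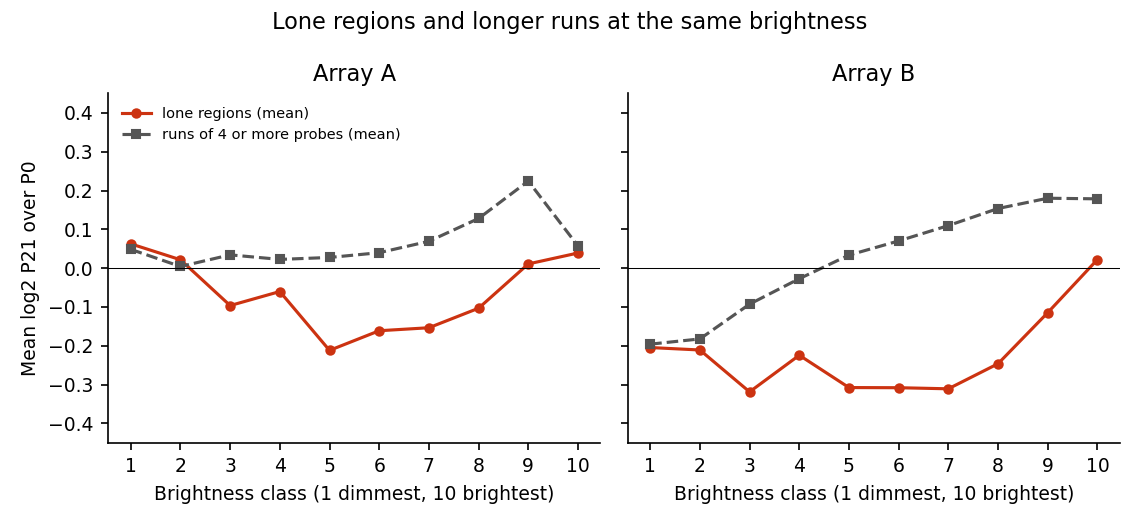
Mean log2 P21 over P0 in 10 brightness classes, from 1 (dimmest) to 10 (brightest), for lone regions (red circles, 245 in each class) and probes in runs of 4 or more (grey squares), on array A (left) and array B (right). The means coincide in the 2 dimmest classes and stand apart in classes 3 to 9 on both arrays, with the lone regions lower.

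At equal brightness the shares called depended on the rule. The limma fit on all probes took 0.694% of lone regions as higher against 1.85% of the weighted longer-run probes, and 0.122% as lower in both. The scanner software's spot p-value took 2.53% of lone regions as higher and 4.94% as lower, against 5.98% and 1.87% of the weighted longer-run probes. In the fit on probes well above background, limma took 3.32% as higher and 7.28% as lower, against 7.50% and 2.61%. Lone regions were not more variable between arrays. The median size of the difference between array A and array B was 0.29 in lone regions and 0.31 in the weighted longer-run probes. Pooled over the classes, the correlation between the arrays was nevertheless lower, at 0.37 against 0.50, and the SD of the mean ratio across regions was 0.45 against 0.50. Within the fourth to seventh brightness classes the correlation was higher in lone regions, for example 0.70 against 0.64 in the seventh. It was lower in the other classes.

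Lone regions with a close neighbour moved with it. Over 1742 pairs at gaps of over 500 to 750 bp, the ratio of the lone region and that of its nearest probe correlated at r = 0.64. With 1 array taken at the lone region and the other at its neighbour, which keeps apart any error of a single array, r was 0.45. The correlation fell to 0.42 at gaps to 1000 bp (332 pairs), to 0.30 at gaps to 2000 bp (129 pairs) and to 0.04 in the 209 pairs beyond 2000 bp. With 1 array at each probe, r in these classes was 0.26, 0.21 and 0.003. The correlation between arrays in the lone regions themselves also changed, from 0.43 in the closest class to 0.17, -0.02 and 0.33. Its part in the fall was not tested. The likeness in brightness fell as well, from 0.81 in the closest class to 0.05 beyond 2000 bp. These are descriptions across pairs that share both arrays, and a pair of lone regions enters it from either side. A shared fragment, shared base composition and distance were not separated by the measurement.

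**Figure D4:**
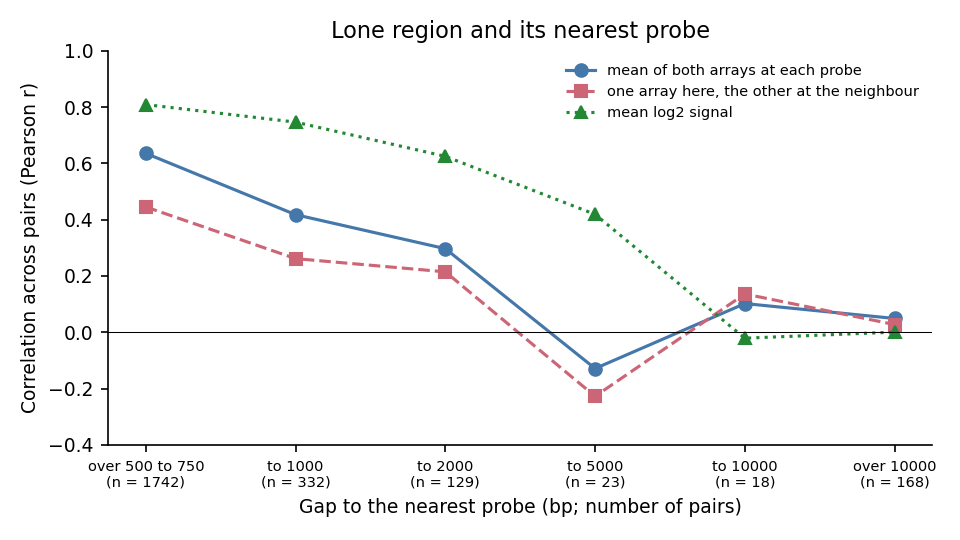
Pearson correlation across pairs of a lone region and its nearest probe, by gap in bp with the number of pairs, for the mean log2 ratio of both arrays (blue circles), the log2 ratio with 1 array at each probe (pink squares) and the mean log2 signal (green triangles). All 3 lines are highest in the closest class, where the blue one is at 0.64, and beyond 2000 bp the blue one lies between -0.13 and 0.10.

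Over all 2074 pairs within 1000 bp, 64 neighbours were at a log2 ratio of 1 or above and 30 at -1 or below. Most lone regions with a large increase had a neighbour at 1 or above, while few with a large decrease had one at -1 or below. Of the 45 lone regions that met the rule of size as higher and lay within 1000 bp of a probe, 33 had a neighbour at a log2 ratio of at least 1, and the median of those 45 neighbours was 1.43. Of the 38 such regions that were lower, 7 had a neighbour at -1 or below, and the median of those neighbours was -0.27. The neighbours of the lower regions were also dim, with a median brightness of 5.96 against 8.03 beside the higher regions; its part in the result was not tested, nor was the difference between these shares. Read from the other side, the 22 neighbours called higher by limma had lone regions with a median log2 ratio of 1.498, and 20 of these 22 were above 0 on both arrays. Of the 64 neighbours at 1 or above, 48 had a lone region above 0 on both arrays, and of the 30 at -1 or below, 19 had one below 0 on both. The bases for these counts were unequal. Of all lone regions within 1000 bp, 13.7% were above 0 on both arrays and 48.3% below. Beside the 1980 neighbours under 1 in size, 236 lone regions were above 0 on both arrays and 981 below. Lone regions within 1000 bp were not dimmer than their own neighbour. They were the dimmer probe in 853 of 2074 pairs (41.1%), and the median difference in log2 signal was 0.28 in favour of the lone region.

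The 213 regions with no probe within 2000 bp stood apart from the other lone regions in signal and spread. Their median brightness was 10.9, and 93.0% were well above background in all channels. Array A gave a mean log2 ratio of 0.01 and array B one of -0.05, and the central 90% lay between -0.34 and 0.29. Against longer-run probes of the same brightness array A differed by -0.07 and array B by -0.15 (-0.11 ± 0.06, SD, n = 2 arrays), and the difference was -0.05 when medians were compared. The SD across regions was 0.26 against 0.51. Limma called 0 of them higher and 1 lower (0.47%), against 2.49% and 0.0921% of longer-run probes of the same brightness. The scanner's spot p-value took 1 higher (0.47%) and 2 lower (0.939%), against 7.59% and 1.68%. At an unadjusted limma p under 0.05, 4 were higher and 6 lower, against 8742 and 5282 of 87889 autosomal probes. The 130 regions at over 1000 to 2000 bp had the lowest means of the gap classes, -0.17 for array A and -0.42 for array B, at a median brightness of 7.85, and r between the arrays was -0.02.

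Among isolated regions past the rule of size, the farthest from any probe was chr3:34096428-34096486, with 104506 bp on 1 side and 114709 bp on the other. It was bright, at 7999 at P21 and 3083 at P0 on array A, and 5620 and 2492 on array B. Its log2 ratios of 1.38 and 1.17 made it 2.42-fold higher at P21, and its adjusted p of 0.0595 did not pass limma. It did pass with mode centring (0.0401) and with normexp and loess (0.0205). It also passed with loess on processed signals, with the trend and robust settings and among probes well above background. It did not pass with normexp alone (0.0765), with flagged spots kept (0.0598) or with the authors' value table (0.0594). The second was chr4:148998705-148998750, described above. The other 3 of the 5 lay 1044 to 1069 bp from a probe and were all lower at P21, with means from -1.33 to -1.06 and no adjusted p under 0.05.

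Some lone regions differed widely between the arrays, and 4 of the 5 named here had opposite signs. The largest difference between arrays among regions well above background was at chr11:33097760-33097811, with a log2 ratio of 1.83 on array A and -1.60 on array B. Its nearest probe, 512 bp away, did the same, at 2.01 and -1.99, so the disagreement covered both probes. At chr7:126599827-126599880 the ratios were -1.82 and 0.73, and at chr4:108119389-108119448 they were 1.75 and -0.73. At chr8:87070622-87070679 they were 1.57 and -0.59, while chr3:41048536-41048595, at -0.13 and -2.28, was below 0 on both and differed in size. All 5 had an adjusted p above 0.46 and give no direction for the age difference. Whether they reflect the animals, the dye or the array cannot be told apart with 1 array in each dye orientation.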

How the data were processed

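The members and the comparisons were chosen with earlier results of these data known. Genomic DNA was measured in 2 two-colour arrays of 1 contrast. The deposited log10 ratios are Cy5 over Cy3 after the authors' scanner software had subtracted background and normalised the dyes; the file headers name its version as 10.5.1.1 and the submitters' processing notes as 9.1.3.1. The deposited processed intensity values are linear, the deposited p-values are the scanner software's per spot, and the other deposited columns are 0 or 1 flags, per the file headers. In the authors' value table these log10 ratios recur in rounded form, with array A turned. Positions are mm8, per the file headers. Gene tables of another build were not used here, so no gene is named.

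Ratios were converted to log2, turned by the dyes in the labels to P21 over P0, averaged over spots of a probe and centred on each array's median. Control spots and spots with an outlier flag were left out, and 0 columns of values were unused. limma 3.58.1 in R 4.3.3 (lmFit and eBayes) tested all 89726 probes with Benjamini-Hochberg adjustment. Python 3.11.15 with pandas 2.3.3 computed runs, brightness classes and neighbours. The limma step was tested on simulated data, and it recovered large changes when noise followed its own fitted spread. When noise was drawn from the differences between the arrays it recovered none, including changes of a size present in both tests. That second test also held fewer changed probes. Limma's counts are therefore given beside other rules. The number of arrays (2) limits the precision, and there is no read depth.

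Named regions, all well above background in all 4 channels, comprise, among those called by limma, 10 in each direction ranked by mean, filled up by the rule of size, the 5 with the largest difference between arrays and the 5 most isolated past the rule of size. Of the last 5, 2 are named in the text. Alternatives covered background correction, centring, loess, flags, the authors' table, limma settings, the gap, the comparison probes, the brightness classes and each array alone.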

Additional observations from a re-analysis of the deposited data

Results flagged for a closer look

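The X chromosome lay outside the comparisons, which used autosomes. By the same spacing rule it held 53 lone regions and the Y chromosome 0. On the X, 45 of the 53 (84.9%) were well above background in all 4 channels, against 5.10% of the negative control spots. Array A gave these 53 a mean log2 ratio of -0.14 and array B one of -0.35. By the rule of size 0 were higher and 1 was lower, and limma called 0 of them.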

How the results depend on the processing

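The lower ratios of lone regions against longer-run probes of the same brightness held their direction on both arrays under every setting tried. The mean difference moved to -0.10 with normexp and loess and to -0.089 for gaps over 2000 bp, and lay between -0.25 and -0.13 with 1 array alone. For regions over 2000 bp from a probe it was -0.047 with medians, and -0.15 to -0.07 with 1 array. Limma's 17 higher and 3 lower calls became 8 and 0 with normexp alone, 64 and 67 with loess on processed signals, 67 and 147 among probes well above background, 52 and 69 under limma's trend and robust options, 62 and 121 by the scanner's spot p; mode centring gave 14 lower. With lone defined by gaps over 250 bp they were 188 and 26 of 14826 regions. Over 1000 bp they were 0 and 1 of 343, and over 2000 bp 0 and 1 of 213. The main fit, which these gaps share, called 2.10% of all probes higher and 0.0925% lower. The rule of size took 12 higher and 0 lower under normexp plus loess and 14 and 7 under normexp alone. It took 498 and 271 at gaps over 250 bp, 1 and 6 over 1000 bp, and 1 and 1 over 2000 bp. Fewer or more members enter at another gap. In the main setting this rule took 4.50% of all probes as higher and 0.868% as lower. With 1 array alone the rule of size took 58 to 84 lone regions higher and 66 to 146 lower. Its counts under normexp and with 1 array stand without a share over all probes. With normexp alone the correlation between arrays reversed, to -0.25 in lone regions and -0.032 in longer-run probes, and chr8:87070622-87070679 turned to -0.029. Apart from the gap, the cause was not tested. A value with no replicate spread was taken as moved past 1.5-fold. End probes, probe length, neighbours to 1000 bp only and the split at 2000 bp were added after seeing the data. No paired analysis was possible because there is 1 group with no second one to pair by replicate; each ratio already sets P21 against P0 within an array. Limma and the likeness between arrays could not be run without 1 array. Signal near background limits the 432 lone regions not well above it in all channels.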
